A study of Mus musculus with 28 samples.

Results

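The step from 2 to 10 nM romidepsin in mouse CD4 T cells is a 5-fold increase in the dose of an HDAC inhibitor. It was read from 4 of the 28 arrays of the series, the 2 arrays labelled CD4 cells with romidepsin at 10 nM and the 2 labelled CD4 cells with romidepsin at 2 nM, with arrays of the same replicate number set against each other and all genes of the array included. The cells were splenic CD4 T cells isolated by negative selection, stimulated for 2 days with plate-bound antibody to CD3 and soluble antibody to CD28, and cultured for 1 more day. In that day they received 10 nM romidepsin, 2 nM romidepsin or no named drug (the stimulated controls). CD8 T cells of the spleen, handled alike, and CD4 T cells with romidepsin at 30 nM or with vorinostat at 2 and 0.5 µM serve for comparison. The labels give neither strain, age nor sex of the animals, name no vehicle, and do not say that replicates came from separate animals or cultures, so the p-values measure the spread between these arrays only. All groups share the stimulation, and no unstimulated cells were analysed here. Values are log2 expression units, those of replicate 1 stand before those of replicate 2, and ± is the standard error of a change in the fit across all arrays (n = 2 arrays per group).

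Histone deacetylases (HDACs) take acetyl groups off lysines of histones and other proteins, and acetylated histones mark open, transcribed chromatin. Romidepsin is a cyclic depsipeptide that is reduced inside cells to a thiol which binds the zinc ion of the class I enzymes, and it is used in people against T cell lymphoma. HDAC inhibitors are known to switch on silent genes and also to lower transcripts of highly expressed genes, and in activated T cells they can block proliferation and induce cell death.

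Of the 9872 genes tested, 3949 (40.0%) changed between 2 and 10 nM at an adjusted p under 0.05 in limma with the replicate number as a block. Of these, 2188 rose (22.2% of the genes tested) and 1761 fell (17.8%), and 1141 genes (11.6%) were both called and changed at least 2-fold, 581 upward and 560 downward. Without the block the same arrays gave 422 calls (4.27%), 322 upward and 100 downward, all of them among the 3949. The genes that rose at least 2-fold were mostly dim in the stimulated controls, with a median control level of 5.28, and 211 of them (36.3%) lay under the detection level of 4.27 there. The genes that fell at least 2-fold were brighter, with a median control level of 8.52 and 8 of them (1.43%) under the detection level, against 7.98 and 10.6% over all genes tested.

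The change had the same sign in both replicates for 78.9% of all genes tested, but not the same size. Among the called genes this number was 3946 (99.9%), which follows largely from calling them on these same arrays. For 3169 called genes (80.2%) the change was larger in replicate 1, and the standard deviation of the change across genes was 0.859 in replicate 1 and 0.623 in replicate 2, with a correlation of 0.794 between them across genes, which are not independent replicates. Both 10 nM arrays lay on one side of both 2 nM arrays for 33.7% of all genes tested. Among the called genes this held for 2480 (62.8%), a description of genes selected on the same arrays. The 95% interval of a change reached a median of 0.353 to each side. The 2 replicate changes differed more in this step (standard deviation of the difference 0.525) than from control to 2 nM (0.343), from 10 to 30 nM (0.372) or in CD8 T cells (0.39), while the fit uses 1 spread for all groups of a gene. Leaving out the 10 nM array of replicate 1 left 1252 calls, and leaving out the 2 nM array of replicate 1 left 2039.

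**Figure D1:**
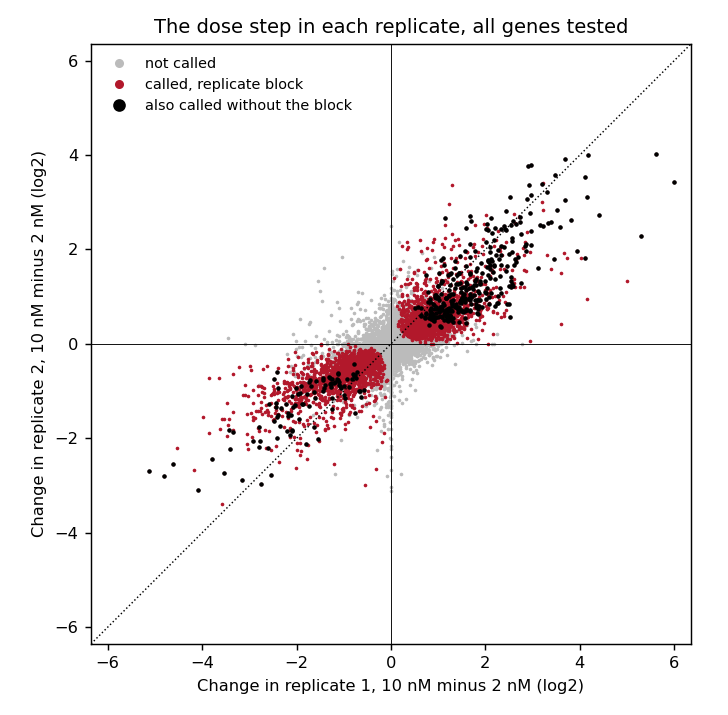
Change of each of the 9872 genes between 2 and 10 nM romidepsin in replicate 1 (horizontal) and replicate 2 (vertical), in log2 units. Red points are genes called with the replicate block, black points are the 422 genes also called without it, and grey points are not called. The cloud is wider along the horizontal axis, where the standard deviation is 0.859 against 0.623 on the vertical axis.

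The 4 arrays were checked against their labels and for RNA quality. Cd4 lay over the detection level in all 4, and so did the CD8 T cell markers Cd8a, Cd8b1, Runx3 and Crtam. Cd8b1 read 6.533 and 7.715 at 10 nM, where Cd4 read 4.826 and 7.118. At 2 nM Cd8b1 read 7.509 and 7.962 and Cd4 8.466 and 7.844. On the CD8 arrays at 10 nM Cd8b1 read 11.53 and 12.063. B cell markers over the detection level numbered 0 and 2 of 9 at 10 nM and 1 and 5 of 9 at 2 nM. Myeloid and dendritic markers (2 of 12 on each array) and erythroid markers (0 of 3 on each array) were mostly dark. The summed linear level of the B cell markers was 56.8 and 201 at 10 nM and 78.0 and 932 at 2 nM, that of the NK cell markers 60.6 and 299 at 10 nM and 300 and 632 at 2 nM, and that of the myeloid and dendritic markers 1990 and 2610 at 10 nM and 1450 and 2240 at 2 nM. Their part in the results was not tested. For beta-actin the 3' probe set minus the 5' one, a difference that increases with RNA breakdown, was 1.331 and 0.850 at 10 nM, 0.920 and 0.748 at 2 nM and 0.944 and 0.784 in the controls. For Gapdh the same difference was 0.218 and 0.113 at 10 nM, 0.194 and 0.134 at 2 nM and 0.202 and 0.161 in the controls. At 30 nM the actin difference was 1.546 and 0.971. It was larger at the higher doses, so RNA quality and dose cannot be told apart by it. With the actin difference as a covariate beside the block, 2289 genes were called, 1268 upward and 1021 downward. A call lost with this covariate may reflect RNA quality or the dose itself, which was not tested. Replicate 1 arrays were bright for the Y-linked transcript Eif2s3y and at background for Xist, and replicate 2 arrays the reverse. The 2 replicate numbers thus came from animals of different sex, so sex and replicate number cannot be told apart. How many animals gave each is not stated. Genes over the detection level numbered 8671 and 9254 at 10 nM and 8629 and 9216 at 2 nM. In bulk RNA, fewer cells of a type and less RNA per cell cannot be told apart.

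Genes named below for the size of their change were called genes with both 10 nM arrays on one side of both 2 nM arrays. Both replicates also had to change with the same sign, so non-overlap in these genes follows from the rule. Among such genes detected at both doses, the largest rise was that of Iigp1, an interferon-inducible GTPase that attacks the vacuoles of intracellular pathogens. Iigp1 read 12.92 and 11.06 at 10 nM, against 6.92 and 7.63 at 2 nM, a change of 4.71 ± 0.45 or 26.2-fold (adjusted p = 1.33e-05, and 0.000225 without the block). Both 10 nM arrays stood far above both 2 nM arrays, and the 2 nM arrays lay close to the controls (6.80 and 6.48). Npl, the N-acetylneuraminate pyruvate lyase that breaks down sialic acid, read 10.00 and 8.95 at 10 nM and 5.82 and 4.94 at 2 nM (4.09 ± 0.35). Acbd7, a member of the acyl-CoA-binding family, read 11.20 and 9.98 at 10 nM and 7.06 and 6.86 at 2 nM (3.63 ± 0.47). The groups did not overlap for either gene, and both calls held without the block (adjusted p = 0.000132 and 0.00201).

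The linker histone H1f2, which binds DNA between nucleosomes, read 12.57 and 10.57 at 10 nM, against 9.26 and 7.35 at 2 nM, a change of 3.27 ± 0.34. Replicate 1 was higher than replicate 2 at each dose, the groups did not overlap, and the changes within the replicates were nearly equal at 3.31 and 3.22. The other 8 of the 12 largest rises came from Prkar2b (3.22), a regulatory subunit of protein kinase A, Tex15 (3.03), a germ cell gene needed for meiosis, Lrp11 (2.97), Arhgap29 (2.93), Prss16 (2.86), a serine protease of the thymic cortex, Mdm1 (2.79), a centriole protein, Coprs (2.68), a partner of the arginine methyltransferase PRMT5, and Mpzl1 (2.60). Of these 8, Arhgap29, Mdm1 and Mpzl1 were not called without the block (adjusted p = 0.281, 0.0534 and 0.0768). Another detected Coprs probe set changed by 1.22.

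Genes that were dark at 2 nM and bright at 10 nM are given as bounds, the 10 nM mean over the higher of the detection level and the measured signal on each 2 nM array. Wasf1, which drives branched actin through the Arp2/3 complex, was at least 11.4-fold higher at 10 nM, with 7.99 and 7.59 at 10 nM and 4.29 and 3.68 at 2 nM. Gsta4, a glutathione transferase acting on lipid peroxidation products, was at least 7.2-fold higher, with 6.57 and 7.83 at 10 nM and 3.34 and 4.43 at 2 nM. The call for Gsta4 was lost without the block (adjusted p = 0.237), and its 2 replicates differed at both doses. Abhd3, a phospholipase, was at least 7.18-fold higher, and Dsp, which encodes the desmosome protein desmoplakin, at least 6.54-fold. The bounds for the vesicle protein Dmxl2 and the adhesion molecule Nectin3 were 6.14-fold and 6.06-fold. Dsp read 7.55 and 6.41 at 10 nM and 3.44 and 2.87 at 2 nM, so that a gene of epithelial junctions stood well over the detection level in T cells on both 10 nM arrays and on neither 2 nM array.

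Among genes detected at both doses whose groups did not overlap, Serpinf1, a secreted serpin, fell most. It read 5.86 and 8.02 at 10 nM, against 10.48 and 10.56 at 2 nM (-3.58 ± 0.69, adjusted p = 0.00128). Asb2, a substrate receptor of a ubiquitin ligase expressed in Th2 cells, read 4.27 and 7.90 at 10 nM and 8.81 and 10.12 at 2 nM (-3.38 ± 0.42). For both genes the 10 nM arrays lay under both 2 nM arrays, and replicate 1 fell further. Vldlr, a lipoprotein receptor, fell by 3.03, Milr1 by 2.76, Ncf1, an organising subunit of the phagocyte oxidase, by 2.63, Emilin2, an extracellular matrix protein, by 2.63, Plpp5, a lipid phosphatase, by 2.59 and Nlrc3, a NOD-like receptor known to dampen T cell responses, by 2.58 on the log2 scale. Of these, Vldlr and Emilin2 were also called without the block (adjusted p = 0.032 and 0.014), as Serpinf1 was (0.0282), and Asb2 was not (0.0715). Nlrc3 and Ncf1 were not called with the actin covariate (adjusted p = 0.221 and 0.0729). The 2 other detected Ncf1 probe sets changed by -2.36 and -0.39.

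Another 6 genes had a 10 nM mean under the detection level, and their falls are bounds of the same kind, with the higher of the detection level and the measured signal taken on each 10 nM array. Cd27, a costimulatory receptor of the TNF receptor family, read 3.04 and 4.19 at 10 nM and 6.62 and 7.59 at 2 nM and was at least 7.13-fold lower (adjusted p = 0.000443, and 0.0934 without the block). Cysltr1, the receptor for cysteinyl leukotrienes, read 2.54 and 3.36 at 10 nM and 7.36 and 6.17 at 2 nM and was at least 5.63-fold lower, a call that held without the block (adjusted p = 0.00201). Tgfb3, a cytokine of the TGF-beta family, was at least 5.99-fold lower, Stc2, a stress-induced secreted protein, at least 6.78-fold, Pik3ip1, an inhibitor of phosphoinositide 3-kinase, at least 5.4-fold, and Apold1 at least 5.23-fold. The plot of levels by array shows the 12 largest changes in each direction among genes detected at both doses whose groups did not overlap.

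**Figure D2:**
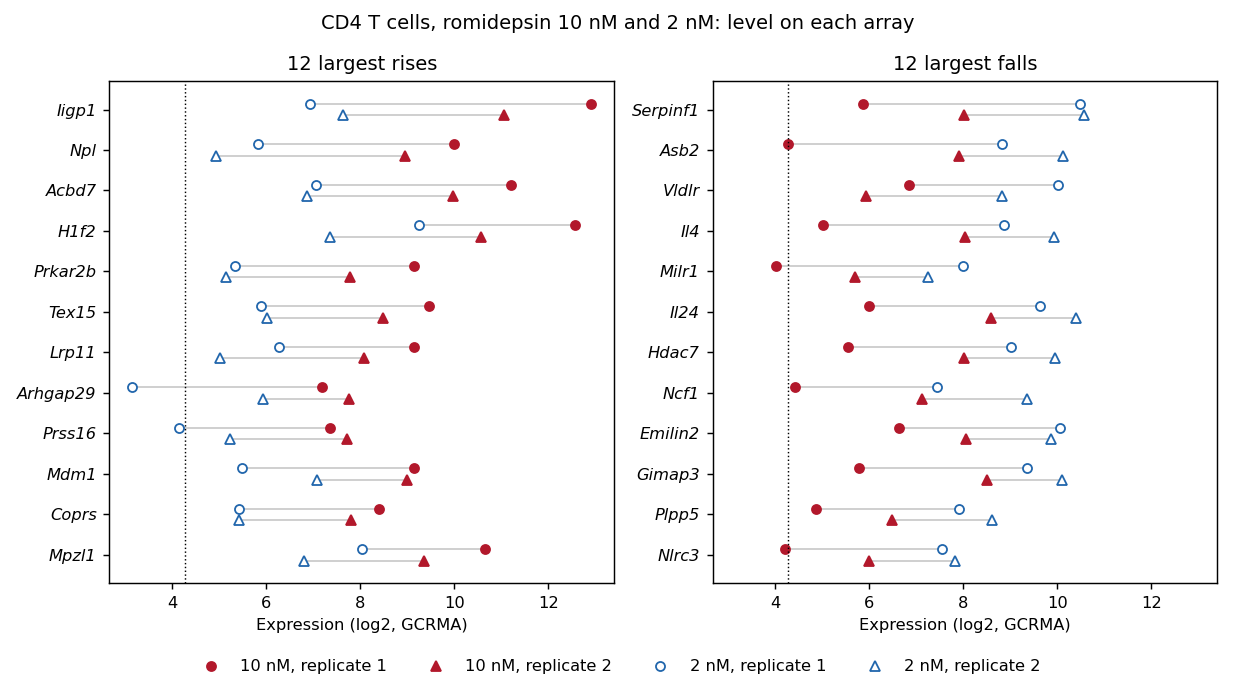
Expression level (log2 units, horizontal axis) of the 12 genes with the largest rises (left panel) and the 12 with the largest falls (right panel) on each of the 4 arrays. Filled red symbols are 10 nM and open blue symbols 2 nM, circles are replicate 1 and triangles replicate 2, grey lines join arrays of the same replicate, and the dotted line is the detection level of 4.27. Only genes with both 10 nM arrays on one side of both 2 nM arrays were eligible, so the filled symbols lie on one side by rule. Iigp1 has the longest line.

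The immunity-related GTPases (IRG) and guanylate-binding proteins (GBP) are interferon-induced GTPases that act together against pathogens inside cells. Of the 10 tested, 9 rose and none fell, with a median change of 1.13 against 0.03 over all genes tested, and 5 of the 9 (Iigp1, Igtp, Irgm1, Irgm2 and Gbp6) were also called without the block. The list was counted over members that lay over the detection level on at least 2 arrays of the series, as were all lists here. Each list count stands beside the shares over all genes tested, 22.2% risen and 17.8% fallen. The median was 1.42 in replicate 1 and 0.78 in replicate 2, and with the actin covariate 8 rose, all but Gbp2 (adjusted p = 0.196). Irgm2, a regulator of the effector GTPases, read 11.39 and 11.17 at 10 nM, against 8.93 and 9.52 at 2 nM (2.06 ± 0.29, adjusted p = 0.000174). Gbp6 read 9.37 and 8.26 at 10 nM and 7.05 and 7.07 at 2 nM (1.75 ± 0.21), and Gbp2 read 12.97 and 11.44 at 10 nM and 10.92 and 10.69 at 2 nM (1.40 ± 0.38). Neither 10 nM array reached down to a 2 nM array for any of the 3 genes. Irgm1 (1.19), Igtp (1.07), Gbp8 (0.79), Gbp7 (0.64) and Ifi47 (0.63) rose less, and Gbp3 changed by 0.28 without a call. Several IRG and GBP genes are close copies of each other, and the signal of their probe sets may be shared.

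Of 11 tested genes of the interferon response and RNA sensing, 3 rose and 1 fell, with a median of 0.31, and none was called without the block. Over all genes tested 40.0% were called, 22.2% upward and 17.8% downward, so the share called in this list was near that of all genes. Irf1, the transcription factor that drives many interferon-gamma targets, read 10.84 and 11.01 at 10 nM, against 8.24 and 9.72 at 2 nM (1.94 ± 0.38, adjusted p = 0.146 without the block). Stat2, a signal transducer of type I interferon, read 6.65 and 6.22 at 10 nM and 4.98 and 4.77 at 2 nM (1.56 ± 0.29), and Trim30a rose by 0.91. Ifit2, an antiviral RNA-binding protein, fell by 0.69, and Zbp1, Bst2, Usp18 and Ifih1 changed by 0.17, 0.31, 0.33 and 0.52 without a call. Ifng itself, the cytokine that induces the GTPases, changed by 0.64 ± 0.39 (adjusted p = 0.209). The difference between the 2 lists was not tested.

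Promoter sequences of RefSeq (build GRCm38.p6) were available for 7 of the 10 GTPase genes, under the 80% needed to compare shares, so no comparison is made. Of these 7, 6 held 2 copies of TTTC separated by any 2 bases, the core of the interferon-stimulated response element, on either strand in the 250 bases before the start, all but Ifi47. The match is a description of the letters and not of binding. The 4 promoters below, 5′ to 3′ on the gene's strand with the match in capitals, are those of the GTPase genes that rose and hold 1 match each. Irgm1, which rose, and Gbp3, which was not called, hold 2 matches each and are not printed. They are Igtp at chr11:58199306-58199555 (plus strand), Irgm2 at chr11:58214727-58214976 (plus strand), Gbp2 at chr3:142620413-142620662 (plus strand) and Gbp7 at chr3:142530086-142530335 (plus strand).
Igtp: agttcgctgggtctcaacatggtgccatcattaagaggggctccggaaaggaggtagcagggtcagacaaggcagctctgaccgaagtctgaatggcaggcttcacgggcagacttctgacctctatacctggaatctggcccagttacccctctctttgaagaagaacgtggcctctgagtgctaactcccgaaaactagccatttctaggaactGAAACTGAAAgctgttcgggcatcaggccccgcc
Irgm2: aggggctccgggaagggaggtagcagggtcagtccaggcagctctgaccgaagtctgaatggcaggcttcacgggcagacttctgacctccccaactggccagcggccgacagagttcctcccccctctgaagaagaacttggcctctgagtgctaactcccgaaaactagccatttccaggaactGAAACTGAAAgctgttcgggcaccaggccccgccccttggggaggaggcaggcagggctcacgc
Gbp2: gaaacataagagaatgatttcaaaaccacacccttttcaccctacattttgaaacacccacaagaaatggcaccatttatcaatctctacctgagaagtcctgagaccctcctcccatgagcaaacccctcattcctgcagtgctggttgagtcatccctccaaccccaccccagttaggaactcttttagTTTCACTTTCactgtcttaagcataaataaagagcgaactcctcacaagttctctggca
Gbp7: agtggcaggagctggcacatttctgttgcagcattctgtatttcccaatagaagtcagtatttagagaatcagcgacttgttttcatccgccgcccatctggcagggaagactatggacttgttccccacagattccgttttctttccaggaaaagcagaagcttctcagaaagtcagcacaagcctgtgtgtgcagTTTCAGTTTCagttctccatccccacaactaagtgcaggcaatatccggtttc
The promoters of Igtp and Irgm2 share the 10 matched letters on the minus strand, and those of Gbp2 and Gbp7 hold the motif on the plus strand.

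Of 25 genes best known from neurons measured here, 13 were too dark to be tested, 8 rose, 4 were tested and not called and none fell, with a median change of 1.26 (1.22 in replicate 1 and 1.40 in replicate 2). A gene that passed the filter only through arrays where a drug raised it had to differ, so the count is a description. Bex1, an adaptor protein of neurons, read 13.23 and 12.52 at 10 nM and 10.47 and 10.19 at 2 nM (2.54 ± 0.38). Uchl1, a ubiquitin hydrolase that is abundant in neurons, was at least 1.36-fold higher at 10 nM, and Kif5c, a kinesin of axonal transport, rose by 2.28, Tubb2b, a beta-tubulin of the developing brain, by 2.24 and Syt11, a synaptotagmin, by 1.37. Bex2 was at least 3.66-fold higher at 10 nM, Eno2, the neuronal enolase, rose by 1.11, and Map1b, a microtubule-binding protein, was called upward with both means under the detection level. Of these 8, 6 were called without the block, all but Map1b and Eno2 (adjusted p = 0.475 and 0.128), and Eno2 was not called with the actin covariate (adjusted p = 0.192).

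Among 24 tested actin and membrane-shaping genes, 8 rose and 4 fell, with a median of 0.09, beside 22.2% risen and 17.8% fallen over all genes tested. The curvature protein Fnbp1l read 8.15 and 7.17 at 10 nM and 5.73 and 4.73 at 2 nM (2.43 ± 0.37, called without the block). Wasf1, given above, nonmuscle myosin Myh10 (1.45) and the tropomyosin Tpm2 (1.10) rose as well, and Myo6, the myosin that walks toward the minus end of actin filaments, fell by 2.43. Actg1 and Vim changed by -0.03 and 0.08 without a call. Of 10 tubulins tested, 3 rose and 2 fell. Tubb2a read 10.78 and 10.27 at 10 nM and 8.15 and 8.46 at 2 nM (2.22 ± 0.35), and Tubb6 fell by 0.88. Tubb2a and Tubb2b are near copies, and their probe sets may share signal.

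Of all genes tested 40.0% were called, 22.2% upward and 17.8% downward, and the lysosomal and redox lists were called at shares near that. Of 20 lysosome and autophagy genes, 8 rose and 1 fell (median 0.23). Ctsl, the protease cathepsin L, read 10.33 and 10.15 at 10 nM and 9.32 and 8.64 at 2 nM (1.26 ± 0.20), Map1lc3a, which coats autophagosomes, rose by 1.33, Wipi1 by 1.27 and the lysosomal membrane protein Lamp2 by 1.08. Of these 4, only Lamp2 lost its call without the block (adjusted p = 0.121), and only Map1lc3a lost it with the actin covariate (adjusted p = 0.059). Of 22 redox genes, 7 rose and 3 fell (median 0.22). Mgst3, a glutathione transferase of the endoplasmic reticulum membrane, read 10.75 and 10.40 at 10 nM and 8.41 and 8.32 at 2 nM (2.21 ± 0.28), and Txnip, which binds and inhibits thioredoxin, rose by 2.19 ± 0.46. The metallothioneins Mt1 and Mt2 changed by 0.39 and 0.34 without a call. Of the stress chaperones Hspa1a and Hspa1b, near copies of each other, Hspa1a was at least 4.22-fold higher at 10 nM and Hspa1b rose by 2.42 (neither called without the block, adjusted p = 0.406 and 0.079), and of the 11 heat shock and chaperone genes 3 rose and none fell.

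Most tested genes of T cell receptor signalling fell. Of 20 genes of the receptor complex and its signalling tested, 15 fell and 1 rose, with a median change of -1.22 (-1.51 in replicate 1 and -0.83 in replicate 2). With the actin covariate 7 fell and none rose, with a median of -0.43, and without the block 1 fell. That 1 was Trat1, an adaptor that holds the receptor complex together, which read 6.01 and 6.38 at 10 nM, against 8.61 and 8.59 at 2 nM (-2.40 ± 0.31, adjusted p = 9.66e-05, and 0.00209 without the block). The 2 replicates were close at each dose for Trat1 and the groups did not overlap. Zap70, the kinase that binds the phosphorylated receptor, read 7.30 and 10.09 at 10 nM and 9.98 and 11.12 at 2 nM (-1.86 ± 0.57, adjusted p = 0.656 without the block), and its groups overlapped, since the 10 nM value of replicate 2 lay above the 2 nM value of replicate 1. The adaptor Lcp2 fell by 2.00, the phosphatase-like regulator Ubash3a by 2.01, Themis, a signalling protein of thymocytes and T cells, by 1.82, and the receptor chain Cd247 changed by -1.77. The chains Cd3g, Cd3e and Cd3d fell less, by 0.81, 0.79 and 0.79. Fyn, a Src family kinase, rose by 0.45, and Cd28 changed by -0.28 ± 0.29 without a call.

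Cd4, the coreceptor by which the cells were labelled, read 4.83 and 7.12 at 10 nM, against 8.47 and 7.84 at 2 nM (-2.18 ± 0.59, adjusted p = 0.00928). Its change was -3.64 in replicate 1 and -0.73 in replicate 2, and the call was lost without the block (adjusted p = 0.0858) and with the actin covariate (adjusted p = 0.182). Its lineage factor Zbtb7b fell by 1.11. Of the 4 tested CD8 T cell markers, Runx3 alone was called and fell by 0.95, and the median was -0.70. Cd8a had the highest change of these, 0.04, without a call. All 5 tested genes of the CD4 T cell marker list fell (median -0.81), with a summed linear level of 5870 and 12300 at 10 nM and 13200 and 16900 at 2 nM. Cd3e, Cd3d and Cd3g are in this list and were counted above with the receptor complex. CD8 T cells carry them too, and on the CD8 arrays at 10 nM Cd3d read 12.73 and 13.60. The CD3 chains made up most of the sum, so neither count nor sum is particular to CD4 T cells. None of the 5 was called without the block, and 1 was with the actin covariate. The CD8 T cell markers summed to 563 and 828 at 10 nM and 1150 and 1270 at 2 nM.

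The GIMAP genes encode GTPases of lymphocytes that sustain T cell survival. Of 8 tested, 7 fell and none rose (median -1.23), with a median of -1.75 in replicate 1 and -0.61 in replicate 2. Gimap3 read 5.78 and 8.51 at 10 nM, against 9.36 and 10.10 at 2 nM (-2.59 ± 0.47), and Gimap5 fell by 1.62, Gimap8 by 1.27, Gimap4 by 1.24 and Gimap6 by 1.21. None of the 7 was called without the block, where the adjusted p of Gimap3 was 0.269 and that of Gimap8 0.0563, and 2 were called with the actin covariate, where the median was -0.46. The GIMAP genes lie in 1 cluster and resemble each other, and their probe sets may share signal.

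Costimulators and cytokines fell in part. Of 8 costimulators of the TNF receptor family, 4 fell and none rose (median -1.22). Tnfrsf25, the receptor for TL1A, read 2.28 and 3.53 at 10 nM, against 4.82 and 6.30 at 2 nM, and was at least 2.45-fold lower (adjusted p = 3.31e-05, and 0.0166 without the block). Tnfrsf18, known as GITR, fell by 1.51, Tnfrsf9, known as 4-1BB, by 1.24, and Cd27 as given above, and Icos changed by 0.63 ± 0.30 without a call. Without the block Tnfrsf25 alone was called, and with the actin covariate the median was -0.41, Tnfrsf18 lost its call (adjusted p = 0.559), Tnfrsf14 gained one as a fall (adjusted p = 0.00353) and Icos gained one as a rise. Among 11 inhibitory receptors and exhaustion genes, 3 fell and none rose (median -0.51): the PD-1 gene Pdcd1 by 1.32, Btla by 1.83, and the ectonucleotidase Entpd1 at least 1.65-fold. The share called in this list was under the 40.0% over all genes tested, of which 22.2% rose and 17.8% fell. Lag3, Ctla4 and Tox changed by -0.36, 0.16 and -0.57 without a call. None of the 3 was called without the block, and with the actin covariate the median was -0.20, Entpd1 alone fell and Cd274, which encodes PD-L1, alone rose.

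Of 18 cytokine genes tested, 8 fell and 1 rose (median -0.96, with -1.54 in replicate 1 and -0.41 in replicate 2). Il4, the signature cytokine of Th2 cells, read 5.01 and 8.03 at 10 nM, against 8.87 and 9.93 at 2 nM (-2.88 ± 0.50, adjusted p = 0.151 without the block). Il5, which sustains eosinophils, was at least 3.05-fold lower, with 2.27 and 5.20 at 10 nM and 5.62 and 7.07 at 2 nM, and Ltb, a lymphotoxin, fell by 2.21. The Il4 and Il5 values at 10 nM were low in replicate 1 and between that level and the 2 nM level in replicate 2. Il24 fell by 2.72, Il21, a cytokine of follicular helper cells, by 1.81 and the death ligand Fasl by 1.53. Tnf read 9.12 and 9.04 at 10 nM and 7.26 and 8.04 at 2 nM and rose by 1.43 ± 0.42 (adjusted p = 0.0146, and 0.106 without the block). Of the 8 falls 3 (Il5, Ltb and Tgfb3) were called without the block, and 5 genes of the list fell with the actin covariate, with a median of -0.37. Il2 and Il13 changed by 0.38 and -0.97 without a call.

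Of 27 cytokine receptors and JAK-STAT genes, 12 fell and 2 rose (median -0.61). Il6ra, the receptor for interleukin 6, read 5.28 and 7.60 at 10 nM, against 8.02 and 9.09 at 2 nM (-2.12 ± 0.35), while the shared signalling chain Il6st rose by 0.85. Il7r, the receptor for the survival cytokine interleukin 7, fell by 2.36, Il27ra by 1.56, Il21r by 1.48 and Stat6, which carries the interleukin 4 signal, by 1.30. The call for Il7r rested on a change of -3.47 in replicate 1 and -1.25 in replicate 2 and was lost without the block and with the actin covariate (adjusted p = 0.493 and 0.88). In the whole list 1 fall was called without the block (Pim1, a kinase induced by STAT5, which fell by 0.99), and with the actin covariate 6 genes fell, with a median of -0.20. Of 17 chemokine receptors and adhesion molecules, 5 fell and 1 rose (median -0.84), with Itgal and Itgb2, the chains of the integrin LFA-1, falling by 1.40 and 1.08, and Cd69, an early activation marker, rising by 1.62. The share called in this list was near the 40.0% over all genes tested, of which 22.2% rose and 17.8% fell. None of this list was called without the block, and Itgal, Itgb2 and Cd69 were not called with the actin covariate (adjusted p = 0.599, 0.262 and 0.0716), where the median was -0.24.

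Among T cell transcription factors, falls outnumbered rises. Of 23 lineage factors, 10 fell and 1 rose (median -0.41). Irf8, a transcription factor better known from myeloid and B cells, read 14.03 and 13.20 at 10 nM, against 11.06 and 11.11 at 2 nM (2.53 ± 0.24, adjusted p = 1.23e-05, and 0.00026 without the block). Irf8 was already bright at 2 nM and in the controls, and both 10 nM arrays lay well above both 2 nM arrays. Ikzf1, the lymphoid factor Ikaros, fell by 1.61, Batf, an AP-1 factor of effector T cells, by 1.33, Gata3, the Th2 factor, by 1.17, and Runx3, which drives cytotoxic fate, by 0.95. Tbx21, the Th1 factor, and Eomes changed by 0.39 and 0.58 without a call. None of the 10 falls was called without the block, and with the actin covariate 3 genes fell, with a median of -0.21. Of the 15 AP-1, NFAT, Egr and Nr4a genes, 3 rose and 4 fell (median 0.04), with Fos rising by 1.57, Egr1 by 0.63 and Nr4a1 by 0.67, Nr4a3, Jund and Nfatc3 falling by 0.81, 0.71 and 0.57, and Fosl1 called downward with both means under the detection level. None of these was called without the block. Of 11 NF-kappaB genes, 1 rose and 4 fell, and none was called without the block. For the NF-kappaB list and the list before it, the share called was near the 40.0% over all genes tested. Among the NF-kappaB genes Traf1 changed most (-1.95), with an adjusted p of 0.253 without the block and 0.396 with the actin covariate.

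The ATF4 program makes amino acids and transporters when nutrients or folding capacity run short. Of 19 of its genes, 12 fell and none rose (median -0.74, with -0.88 in replicate 1 and -0.50 in replicate 2). Nupr1, a small stress-induced nuclear protein, read 2.31 and 2.90 at 10 nM, against 5.84 and 5.64 at 2 nM, and was at least 2.78-fold lower (adjusted p = 7.58e-06, and 0.000107 without the block). Trib3, a pseudokinase that feeds back on ATF4, read 5.10 and 5.77 at 10 nM and 7.20 and 7.60 at 2 nM (-1.96 ± 0.27, adjusted p = 0.00181 without the block). Chac1, which degrades glutathione, fell by 0.99, Atf5 by 1.41, the amino acid transporter Slc7a5 by 1.20, the mitochondrial folate enzyme Mthfd1l by 1.75 and the serine synthesis enzyme Phgdh by 0.78. The genes for Atf4 itself and for Ddit3, known as CHOP, changed by -0.39 and 0.13 without a call. Without the block 3 of the 12 falls were called, and with the actin covariate 7 genes of the list fell, with a median of -0.37. The 19 glycolysis genes gave 7 falls and 1 rise (median -0.33), led by the lactate exporter Slc16a3 (-1.27) and the phosphofructokinase Pfkl (-1.17). The share called in this list was near the 40.0% over all genes tested, of which 22.2% rose and 17.8% fell. Without the block 2 falls were called, Slc16a3 and Pfkl (adjusted p = 0.0406 and 0.0483). With the actin covariate neither of these was called (adjusted p = 0.0956 and 0.0906), 1 gene of the list fell and the median was -0.14.

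The genes of cell death moved in both directions, as did all genes tested, of which 22.2% rose and 17.8% fell. Among 12 pro-apoptotic genes, 4 rose and 2 fell (median 0.08). Bmf, a BH3-only protein that neutralises BCL-2, read 7.74 and 6.85 at 10 nM, against 5.54 and 4.39 at 2 nM (2.33 ± 0.31, adjusted p = 0.000122, and 0.00229 without the block). Bcl2l11, which encodes the BH3-only protein BIM, read 9.10 and 9.51 at 10 nM and 7.70 and 8.20 at 2 nM (1.35 ± 0.19, adjusted p = 0.283 without the block). Both genes were higher on each 10 nM array than on either 2 nM array, on the probe set kept. The 4 other detected Bcl2l11 probe sets changed by 0.06 to 1.52. Fas rose by 0.60, and Casp8 and Bak1 fell by 1.33 and 0.78. Of 9 anti-apoptotic genes, 5 fell and 1 rose (median -0.72). Cflar, the inhibitor of caspase 8, read 7.56 and 8.37 at 10 nM and 9.58 and 9.66 at 2 nM (-1.66 ± 0.26, adjusted p = 0.00902 without the block). Birc3 fell by 1.52, Bcl2 by 1.08, Xiap by 0.73 and Bcl2l1 by 0.72, and Mcl1 changed by -0.36 without a call. With the actin covariate 4 of the 5 falls were still called. Without the block Cflar alone was (adjusted p = 0.294 for Birc3, 0.142 for Bcl2 and 0.571 for Xiap).

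Cell cycle genes that were called mostly fell, while 22.2% of all genes tested rose and 17.8% fell. Of 23 mitosis genes, 11 fell and none rose (median -0.46), and without the block none was called. Aurka fell by 1.20, Plk1 by 0.90, Aurkb by 0.76 and Cdk1 by 0.77, all kinases that drive mitosis, and Top2a, Mad2l1 and Bub1 changed by 0.06, 0.28 and 0.17 without a call. Of 24 replication and nucleotide genes, 5 fell and 2 rose (median -0.14), with thymidine kinase Tk1 and the ribonucleotide reductase subunit Rrm2 falling by 1.67 and 1.04. With the actin covariate 4 of the mitosis genes and 1 of the replication genes fell. The CDK inhibitor Cdkn1a changed by -0.62 ± 0.26 (adjusted p = 0.0655), while Cdkn2b was at least 1.31-fold higher at 10 nM, Cdkn1c rose by 1.28 and Cdkn1b fell by 0.93. Cdk6, a partner of the D cyclins, fell by 1.40 ± 0.26, with both 10 nM arrays under both 2 nM arrays, and was also called without the block (adjusted p = 0.0107). Myc fell by 0.91 ± 0.31, and its antagonist Mxd1 read 9.19 and 9.21 at 10 nM and 7.88 and 7.85 at 2 nM (1.34 ± 0.22, adjusted p = 0.0181 without the block). Another detected Mxd1 probe set changed by only 0.27. Of 27 MYC network and ribosome biogenesis genes, 4 fell and 2 rose.

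**Figure D3:**
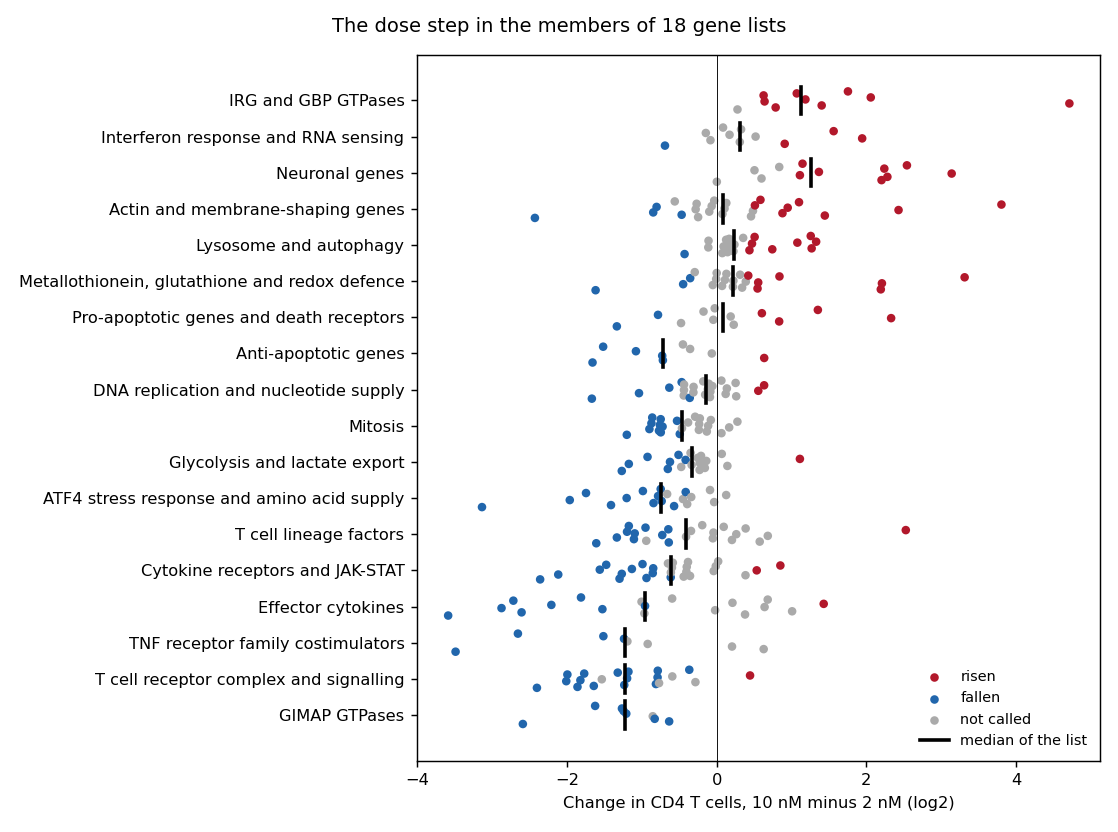
Change between 2 and 10 nM romidepsin (log2 units, horizontal axis) of each tested member of 18 gene lists. Each point is a gene, red where it rose, blue where it fell and grey where it was not called, and the black bar is the median of the list. The medians of the GTPase and neuronal lists (1.13 and 1.26) lie to the right of 0, and those of the receptor signalling and GIMAP lists (-1.22 and -1.23) to the left.

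Of 10 HDAC genes tested, 2 rose and 2 fell (median -0.03), the same share as the 40.0% called over all genes tested. Hdac1, a class I enzyme and a target of romidepsin, read 11.26 and 11.45 at 10 nM, against 10.69 and 10.66 at 2 nM (0.68 ± 0.11, adjusted p = 0.000478, and 0.0301 without the block). The 4 values of Hdac1 varied little within a dose and did not overlap. Hdac7, a class IIa enzyme that is high in the T lineage, read 5.54 and 8.01 at 10 nM and 9.0 and 9.96 at 2 nM (-2.71 ± 0.51, adjusted p = 0.00115, and 0.293 without the block). Hdac6, mostly a tubulin deacetylase, rose by 0.92 ± 0.34 and Hdac8 fell by 0.69 ± 0.20, and neither was called without the block or with the actin covariate (adjusted p = 0.447 and 0.977 without the block). The class I genes Hdac2 and Hdac3 changed by 0.18 ± 0.11 and 0.19 ± 0.08, and Hdac4 and Hdac5 by -0.04 and -0.01, none of them called, and Hdac9 and Hdac10 had means under the detection level at both doses.

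Of 11 acetyltransferases and BET readers, 4 fell and 1 rose, with Crebbp and Ep300, the broad acetyltransferases CBP and p300, falling by 0.93 ± 0.13 and 0.57 ± 0.14 and Kat2b by 1.52. Of 14 Polycomb and DNA methylation enzymes, 2 fell and none rose, beside 40.0% called over all genes tested. Tet1, which oxidises methylcytosine, was at least 3.32-fold lower, with 3.29 and 4.94 at 10 nM and 6.17 and 6.50 at 2 nM, and the methyltransferase Dnmt3a fell by 1.44 ± 0.31. None of these was called without the block (adjusted p = 0.122 for Crebbp, 0.235 for Ep300, 0.281 for Tet1 and 0.123 for Dnmt3a), and Dnmt3a was not called with the actin covariate (adjusted p = 0.0539).

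Of 19 DNA repair and p53 target genes, 4 rose and 4 fell (median -0.12), with the growth arrest genes Gadd45a and Gadd45b rising by 1.59 and 0.90, the recombination gene Brca2 by 0.72, and Phlda3, Sesn2 and Ccng1 falling by 1.64, 0.98 and 0.38. Of 11 genes of MHC class I presentation, 2 rose and 4 fell (median -0.03), among them Nlrc5, the transactivator of class I genes, which rose by 0.54, and the immunoproteasome subunit Psmb10 and the trimming peptidase Erap1, which fell by 1.14 and 1.05. Of 6 MHC class II genes, H2-Ab1 alone was called and fell by 0.98 (median of the list -0.47). With the actin covariate 4 of the 6 fell, with a median of -1.18, and 5 of 6 B cell markers fell there, against 1 without the covariate. The summed B cell marker level was 56.8 and 201 at 10 nM and 78.0 and 932 at 2 nM, and its part in the class II values was not tested. Of 8 chemokines, Ccl5, a T cell attractant, alone was called and rose by 1.46. Of 20 cholesterol and fatty acid genes, 3 rose and 2 fell, with fatty acid synthase Fasn falling by 1.56 (adjusted p = 0.491 without the block). In these 5 lists no gene was called without the block. Their counts stand beside 40.0% called over all genes tested, 22.2% upward and 17.8% downward, and are descriptions.

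Unc13d, which primes cytotoxic granules for release, read 5.79 and 6.30 at 10 nM and 7.73 and 7.88 at 2 nM (-1.77 ± 0.22, adjusted p = 7.79e-05, and 0.00729 without the block). Its groups did not overlap. Rab27a, which docks the granules, fell by 0.74, and the lysosomal membrane protein Lamp1 rose by 0.47. Of 10 cytotoxic genes these 3 were called, beside 40.0% over all genes tested. Some genes went opposite ways in the replicates and were not called. Gzma, which encodes granzyme A, read 8.01 and 11.08 at 10 nM and 9.48 and 10.18 at 2 nM, a change of -1.47 in replicate 1 and 0.90 in replicate 2. Prf1, which encodes perforin, changed by -1.75 in replicate 1 and 0.42 in replicate 2, and the long noncoding RNA Morrbid by -1.14 and 0.90. These are the 3 genes detected on all 4 arrays whose replicate changes of opposite sign differed most.

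The step between 2 and 10 nM can be set beside the steps below and above it, with which it shares the 2 nM and the 10 nM arrays. From control to 2 nM, 91 genes (0.922%) were called, 81 upward and 10 downward, between 2 and 10 nM 3949 (40.0%), and from 10 to 30 nM, a 3-fold interval, 1056 (10.7%), 635 upward and 421 downward. The standard deviation of the change across genes was 0.292, 0.703 and 0.451 in the 3 steps. A test of the difference between steps called 123 genes (1.25%) for 2 to 10 nM against control to 2 nM, with 115 of them larger in size in the step from 2 to 10 nM, and 17 genes (0.172%) for 10 to 30 nM against 2 to 10 nM, with 15 larger in size in the step from 2 to 10 nM. The dose intervals differ in size, so these are differences per step and not per unit of dose.

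The genes differed in where along the doses they moved. Iigp1 read 6.80 and 6.48 in the controls, 6.92 and 7.63 at 2 nM, 12.92 and 11.06 at 10 nM and 13.59 and 13.06 at 30 nM, so that most of its rise lay between 2 and 10 nM, and this step exceeded the one below it (adjusted p = 0.0286). H1f2 read 7.18 and 5.36 in the controls, 9.26 and 7.35 at 2 nM, 12.57 and 10.57 at 10 nM and 11.86 and 11.22 at 30 nM, and Kif5c read 2.34 and 3.23 in the controls, 5.81 and 4.87 at 2 nM, 7.84 and 7.40 at 10 nM and 7.90 and 7.85 at 30 nM. Both had already risen at 2 nM (adjusted p = 0.0134 and 0.00236), H1f2 by 2.04 and Kif5c from a control mean under the detection level, and changed by -0.03 and 0.26 above 10 nM without a call. Nupr1 read 5.96 and 5.58 in the controls, 5.84 and 5.64 at 2 nM, 2.31 and 2.90 at 10 nM and 2.29 and 2.34 at 30 nM, with a change of -0.03 in the step below (adjusted p = 0.00846 for the difference of the steps). Its levels at 10 and 30 nM were both under the detection level of 4.27, so no change above 10 nM could be seen. Cd4 read 8.55 and 8.02 in the controls, 8.47 and 7.84 at 2 nM, 4.83 and 7.12 at 10 nM and 2.75 and 4.14 at 30 nM, and fell further from 10 to 30 nM, to a mean under the detection level (adjusted p = 0.019). Gimap3 likewise fell by 2.03 (adjusted p = 0.019) in the upper step, and Cd27 had means under the detection level at both 10 and 30 nM. Mxra8, an adhesion protein, rose by 1.82 between 2 and 10 nM and changed by 0.04 between 10 and 30 nM, and the 2 steps differed (adjusted p = 0.0052). The uncharacterised B430306N03Rik read 2.39 and 2.37 at 10 nM and 5.18 and 4.56 at 2 nM, and its fall differed from the change in the steps below and above (adjusted p = 0.000986 and 0.0173). It read 2.33 and 2.26 at 30 nM, so no further fall could be seen under the detection level. Its control mean of 4.18 was also under that level.

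**Figure D4:**
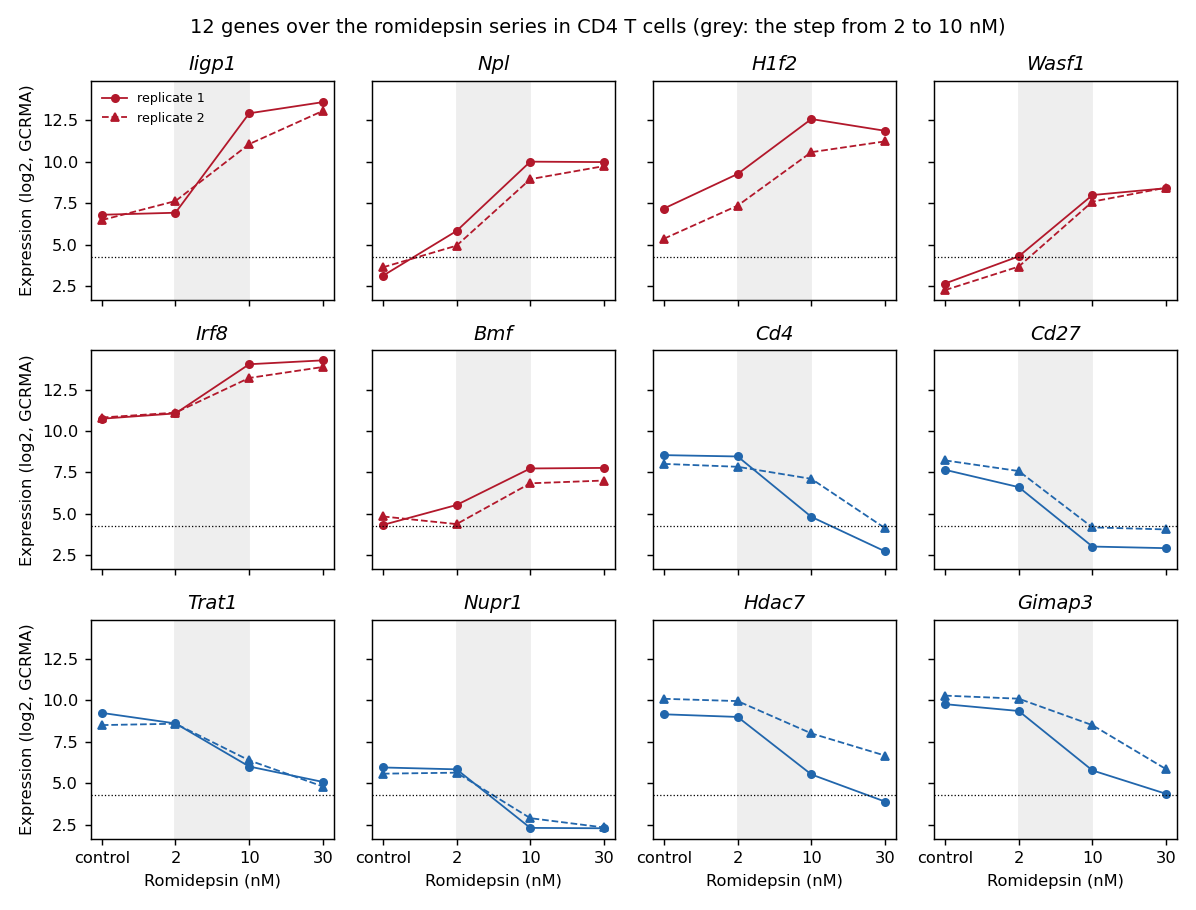
Expression (log2 units, vertical axis) of 12 genes in CD4 T cells over the control, 2, 10 and 30 nM romidepsin (horizontal axis, evenly spaced and not to scale), with replicate 1 as circles and solid lines and replicate 2 as triangles and dashed lines. Red genes rose and blue genes fell between 2 and 10 nM, the interval shaded grey, and the dotted line is the detection level. Most of the change of Iigp1 lies inside the shaded interval, Nupr1 is under the detection level at both higher doses, and Cd4 and Gimap3 keep falling above it.

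In CD8 T cells the same dose step, measured on 4 other arrays, called 521 genes (5.28%), 327 upward and 194 downward. The standard deviation of the change was 0.703 in CD4 and 0.418 in CD8 T cells, and the changes correlated at 0.583 across genes, which share the array design and the probe sets. Of the genes called in CD4 T cells, 353 were also called in CD8 T cells, which is 8.94% of the CD4 calls and 67.8% of the CD8 calls, and 344 of the 353 had the same sign. Over all genes tested 40.0% were called in CD4 T cells, and 68.7% changed with the same sign in both cell types. The genes that rose at least 2-fold in CD4 T cells had a median change of 1.40 there and of 0.50 in CD8 T cells, and those that fell at least 2-fold had medians of -1.37 in CD4 and -0.40 in CD8 T cells, with the CD4 medians chosen by the rule for those genes. The difference between the CD4 and the CD8 step was called for 318 genes (3.22%), 172 with a higher and 146 with a lower change in CD4 T cells, and for 273 of the 318 the CD4 change was larger in size. Without the block 5 genes were called for this difference. The count moved with single CD4 arrays, with 33 calls without the 10 nM array of replicate 1, 35 without the 2 nM array of replicate 1, 935 without the 10 nM array of replicate 2 and 493 without the 2 nM array of replicate 2.

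For some genes that were dark in CD4 T cells at 2 nM and rose at 10 nM, the change differed from that in CD8 T cells, where they were dark at both doses. Fmnl2, a formin that extends actin filaments, read 5.69 and 5.66 at 10 nM, against 2.48 and 2.28 at 2 nM, and was at least 2.65-fold higher in CD4 T cells, while in CD8 T cells it read 2.75 and 2.35 at 10 nM and 2.48 and 2.26 at 2 nM. The CD4 and CD8 changes differed (adjusted p = 0.000147), and the size of that difference cannot be given, since 3 of the 4 group means lay under the detection level. Msrb3, a methionine sulfoxide reductase, read 5.75 and 5.89 at 10 nM and 2.27 and 2.31 at 2 nM in CD4 T cells, against 2.98 and 3.01 at 10 nM and 2.27 and 2.72 at 2 nM in CD8 T cells (adjusted p = 0.0009). The uncharacterised 1700061F12Rik, the flippase subunit Tmem30b and Clba1 showed the same pattern (adjusted p = 3.93e-08, 0.00305 and 0.0164) and were at least 1.83-fold, 1.57-fold and 3.79-fold higher at 10 nM in CD4 T cells. All these genes lay under the detection level on the CD4 arrays at 2 nM and the CD8 arrays at both doses. Values there vary little, and the p-values rest in part on that small spread. A gene that passed the filter only through CD4 arrays where a drug raised it had to differ, so the pattern is a description. The Fmnl2 and Msrb3 promoters are printed because these genes came up in CD4 T cells from under the detection level and their promoters are rich in GC. Each holds 3 matches to GGGCGG, the GC box bound by Sp factors, and they were chosen for this richness. Among other genes that rose, the promoters of Npl, Acbd7, H1f2, Kif5c and Bex2 hold 0 matches, and those of Wasf1, Irf8 and Bex1 hold 1, 2 and 2. Of all 8101 promoters 61.9% hold at least 1 match on either strand. The printed promoters are Fmnl2 at chr2:52857618-52857867 (plus strand, 77.6% G and C) and Msrb3 at chr10:120898972-120899221 (minus strand, 74.4% G and C), 5′ to 3′ on the gene's strand with the GC boxes in capitals.
Fmnl2: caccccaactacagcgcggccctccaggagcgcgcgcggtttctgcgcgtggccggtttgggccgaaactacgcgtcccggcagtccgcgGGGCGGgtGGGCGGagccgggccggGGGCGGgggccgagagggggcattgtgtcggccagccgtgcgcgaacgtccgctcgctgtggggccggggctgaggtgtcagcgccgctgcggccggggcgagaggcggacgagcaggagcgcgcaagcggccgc
Msrb3: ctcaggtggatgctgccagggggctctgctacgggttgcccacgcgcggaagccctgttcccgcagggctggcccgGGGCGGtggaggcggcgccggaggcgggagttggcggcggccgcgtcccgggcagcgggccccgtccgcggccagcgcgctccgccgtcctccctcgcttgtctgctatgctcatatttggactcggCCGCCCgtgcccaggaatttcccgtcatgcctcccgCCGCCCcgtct
Among all genes with a RefSeq promoter, 68.9% of those that rose (1801 promoters), 57.0% of those that fell (1417) and 60.8% of those not called (4883) held GGGCGG in the 250 bases before the start, and 42.4%, 30.9% and 37.1% held CCAAT, the CCAAT box. These shares of genes chosen by their change are descriptions, and no test was made.

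Myo6 read 7.28 and 9.0 at 10 nM and 9.93 and 11.21 at 2 nM in CD4 T cells, against 4.71 and 4.63 at 10 nM and 3.16 and 3.53 at 2 nM in CD8 T cells. Its changes differed between the cell types (adjusted p = 0.00411), though the CD8 change alone was not called (adjusted p = 0.0656) and its CD8 mean at 2 nM lay under the detection level. Trat1 changed by -2.40 in CD4 and 0.01 in CD8 T cells (adjusted p = 0.0102 for the difference). The difference was also called for Il6ra (adjusted p = 0.0102), Nupr1 (0.00111), Tnfrsf25 (0.00451), Asb2 (0.00966), Cysltr1 (0.0197), Tgfb3 (0.0313) and Il4 (0.043), all of which fell in CD4 T cells. On the CD8 arrays Cysltr1 read 2.28 and 2.27 at 10 nM and 2.31 and 2.27 at 2 nM, Asb2 3.63 and 3.24 at 10 nM and the same at 2 nM, and Il4 2.27 and 2.27 at 10 nM and 2.30 and 2.29 at 2 nM. Both CD8 means of Tgfb3 lay under the detection level. Asb2, Cysltr1 and Il4, and likewise Nupr1 and Tnfrsf25, were under the detection level of 4.27 on all 4 CD8 arrays, so a fall could not be seen there. Trat1 was bright in CD8 T cells, with 7.58 and 8.70 at 10 nM and 8.02 and 8.25 at 2 nM, and Il6ra was near the detection level, with 3.99 and 5.40 at 10 nM and 3.33 and 4.76 at 2 nM.

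Iigp1 and Irf8 rose in both cell types and more in CD4 T cells. Iigp1 changed by 4.71 in CD4 and by 2.16 in CD8 T cells (difference 2.56 ± 0.63, adjusted p = 0.0422), and the CD8 arrays at 2 nM, with 9.34 and 9.19, were brighter than the CD4 arrays at 2 nM. Irf8 changed by 2.53 in CD4 and 1.01 in CD8 T cells (difference 1.52 ± 0.33, adjusted p = 0.028). Npl rose by 4.09 in CD4 and 3.63 in CD8 T cells, and the difference of 0.46 ± 0.50 was not called (adjusted p = 0.609). For the IRG and GBP genes the median change was 1.13 in CD4 and 0.82 in CD8 T cells, for the neuronal genes 1.26 and 1.12, for T cell receptor signalling -1.22 and -0.21, and for the GIMAP genes -1.23 and -0.02.

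**Figure D5:**
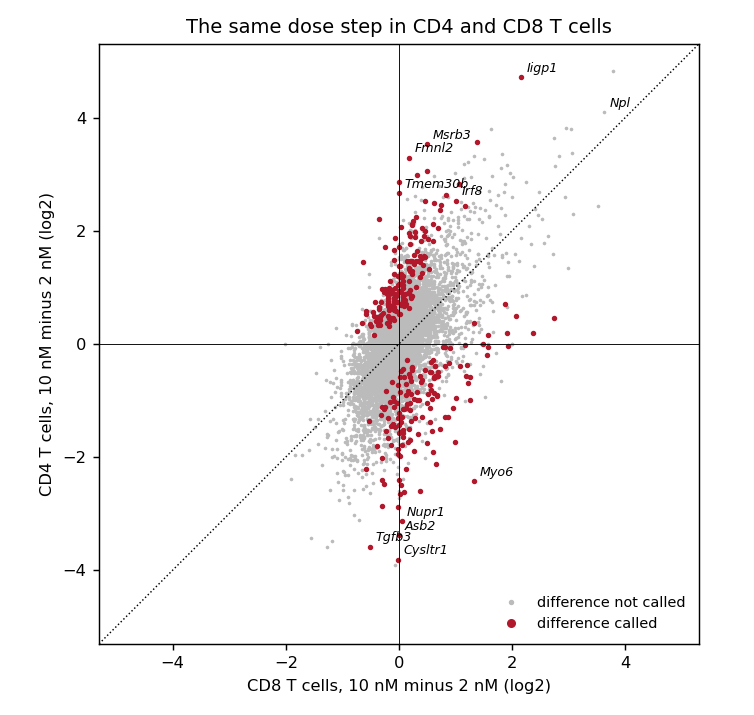
Change of each of the 9872 genes between 2 and 10 nM romidepsin in CD4 T cells (vertical) and in CD8 T cells (horizontal), in log2 units. Red points are the 318 genes for which the difference between the 2 steps was called, and the dotted line marks equal changes. The cloud is steeper than that line, Npl lies near it, and Myo6 stands below 0 on the CD4 axis and above 0 on the CD8 axis.

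Vorinostat, a hydroxamate inhibitor of HDACs of several classes, was given to the same kind of CD4 T cells at 2 and 0.5 µM, a step read from 4 further arrays. It called 518 genes (5.25%), 279 upward and 239 downward, and 458 of them were also called in the romidepsin step, all with the same sign, which is 11.6% of the romidepsin calls and 88.4% of the vorinostat calls. Over all genes tested 40.0% were called in the romidepsin step, and 77.5% changed with the same sign in both steps. The changes of the 2 steps correlated at 0.791 across genes, with a standard deviation of 0.703 for romidepsin and 0.404 for vorinostat. The doses are not matched, so values are given side by side with no comparison of potency. Iigp1 changed by 4.71 with romidepsin and 3.13 with vorinostat, called in both. Wasf1, Nupr1 and Cysltr1, given above as bounds for romidepsin, were also called with vorinostat (adjusted p = 0.000923, 0.00178 and 0.00822). Fmnl2 and Msrb3, at least 2.65-fold and 2.94-fold higher with romidepsin, were not called with vorinostat (adjusted p = 0.458 and 0.835). The difference between the drugs was not tested for any of these genes.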

How the data were processed

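The 28 Affymetrix Mouse430_2 arrays of the series carry expression values that the authors made with GCRMA, per the submitters' processing notes, which give no version here. The deposited values were read as log2 from their range, since no header states the base. They are relative to each array set's normalization and cannot show a general change in RNA per cell. For each gene the brightest of the probe sets that name that gene alone was kept. The detection level was set 2 log2 units above the commonest value (2.2684), at 4.27, and 9872 of 18194 genes lay over it on at least 2 arrays and were tested.

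A linear model over all 28 arrays (limma 3.58.1 in R 4.3.3) had 14 group means and a block for replicate number, set separately in CD4 and CD8 cells, with 12 residual degrees of freedom, and moderated p-values were Benjamini-Hochberg adjusted within each comparison, with a threshold of 0.05. The block was used because the step was defined by pairs of equal replicate number. Deviations of same-numbered arrays from their group means correlated at 0.762 to 0.940 among the 7 CD4 groups and at 0.768 to 0.958 among the 7 CD8 groups. The labels do not say what a replicate number shares. In the text, rose, fell and called refer to this model unless another is named. The number of arrays limits the precision. The model was also run on simulated data, and the outcome is not reported here.

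Genes were named by rule, the 12 largest called changes each way, the 6 largest bounds each way, up to 4 called members of each list each way, every HDAC gene and the 5 largest differences between steps each way. Other list members were named after their values were seen. The lists and the comparisons were chosen with earlier results of these data known. Promoters came from RefSeq (GRCm38.p6). Alternatives varied the block, the arrays in the model, scaling, filter, probe set choice, moderation and a covariate for actin 3' minus 5' signal, and left out each array in turn.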

Additional observations from a re-analysis of the deposited data

Results flagged for a closer look

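For the genes below, the change between 2 and 10 nM romidepsin differed between CD4 and CD8 T cells by the test of that difference in limma (adjusted p under 0.05, with 2 arrays per group), and the value given is the CD4 change minus the CD8 change in log2 units. Where a gene lay under the detection level at a dose in either cell type, this value is a fitted number that rests in part on background and is no measured size. The p-value of such a gene rests in part on the small spread of background values. Causes were not tested.

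Higher changes in CD4 T cells were found for Fmnl2 (3.11), Msrb3 (3.03), 1700061F12Rik (2.86), Tmem30b (2.66), Clba1 (2.66), Iigp1 (2.56), Irf8 (1.52), the adhesion protein Mxra8 (1.43), Brca2 (0.91) and the ribosome biogenesis gene Nop16 (0.85). Nop16 changed by 0.34 in CD4 and -0.51 in CD8 T cells, and Brca2 by 0.72 in CD4 and -0.19 in CD8 T cells. The first 5 of these genes lay under the detection level of 4.27 on all 4 CD8 arrays.

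Lower changes in CD4 T cells were found for the genes of T helper function Il4 (-2.85), Asb2 (-3.38) and Il6ra (-2.77), for Trat1 (-2.41), Tnfrsf25 (-2.68), Tgfb3 (-3.08), Cysltr1 (-3.80), Cflar (-1.46) and Nupr1 (-3.18), and for Myo6 (-3.75), Emilin2 (-2.72), B430306N03Rik (-2.52) and Ampd3 (-2.22), an AMP deaminase. The class II gene H2-Ab1 (-1.56) changed by -0.98 in CD4 and 0.58 in CD8 T cells. Fcgr3 (-2.34), an Fc receptor of myeloid and NK cells that was listed as a marker of both, read 5.12 and 7.68 at 10 nM and 8.09 and 9.15 at 2 nM on the CD4 arrays and 3.97 and 6.22 at 10 nM and 3.75 and 6.20 at 2 nM on the CD8 arrays. Il4, Asb2, Tnfrsf25, Cysltr1, Nupr1, B430306N03Rik and Ampd3 lay under the detection level on all 4 CD8 arrays.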

How the results depend on the processing

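Without the replicate block, 422 genes were called in place of 3949, with 322 risen and 100 fallen, 316 changed at least 2-fold, 1481 at an unadjusted p under 0.05, and 5 called for the CD4 minus CD8 difference. The replicate numbers pair the arrays by the correlation of their deviations, and rises were 55.4% of the calls with the block and 76.3% without it. In the 4 arrays of the step alone, with 1 residual degree of freedom, limma called 0 genes, risen, fallen or 2-fold, while 3158 had an unadjusted p under 0.05. With the actin covariate, 2289 genes were called (1268 risen and 1021 fallen, 808 at least 2-fold), and the CD4 minus CD8 difference 499 times. That difference had 318 calls, 558 after quantile normalization and 154 with no filter on low values, and could not be had from fits without CD8 arrays. With every probe set on its own, 1713 were called and changed at least 2-fold. With the mean of the probe sets of a gene, 3745 genes were called. Of these, 762 changed at least 2-fold, against 1141 with the brightest probe set. When each array was left out in turn, calls ranged from 1252 (without the 10 nM array of replicate 1) to 3669, at least 2-fold from 530 to 1555, risen from 770 to 2090, fallen from 482 to 1579, and CD4 minus CD8 from 33 to 935. Calls were 2039 without the 2 nM array of replicate 1. In these fits 1 dose has a lone array, assumed to vary like the other groups. Of the 167 named called genes, 54 were called without the block, 99 with the actin covariate, 88 to 152 with an array left out and 143 to 167 under scaling and filter settings. No named gene changed sign while called. Genes under 4.27 have only bounds.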
